A study of Homo sapiens with 6 samples.

Results

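The genes described here are 40 that belong to interferon signalling and to the sensing of foreign or misplaced nucleic acid. They were taken by symbol from a deposited table of 24054 genes, and all 40 symbols were found in it. By role, 6 act in sensing, 11 in receptor signalling and 23 are effectors that interferon induces. Their RNA was sequenced in A2780, an established line of human ovarian cancer cells that the labels give as wild type. The treated group was 3 samples given SCR-6920 at 1 µM for 48 h, and the other group was 3 samples given the solvent DMSO for 48 h. Per the title of the series, SCR-6920 inhibits PRMT5, an enzyme that methylates arginine residues symmetrically on histones and RNA-binding proteins. No interferon, viral RNA or other stimulus of the pathway is named in the labels, so the values describe unstimulated cells with and without the inhibitor.

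RNA that reaches the cytosol in an unusual form is bound by the helicases encoded by DDX58 (RIG-I) and IFIH1 (MDA5), which signal through the mitochondrial adaptor MAVS and the kinase TBK1 to the transcription factor IRF3. IRF3 switches on type I interferon, which binds the receptor chains IFNAR1 and IFNAR2 on the same or neighbouring cells. The kinases TYK2 and JAK1 attached to these chains then activate STAT2, and a complex that holds STAT2 and IRF9 binds a promoter element, the ISRE, of the interferon-stimulated genes. Their products block viral RNA, translation and membrane fusion, and some of them, such as the sensors themselves, feed back on the pathway.

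Totals ran from 38149448 to 38642181 counts in SCR-6920 samples and from 39122787 to 39749993 in DMSO samples. The labels do not say that replicates were separate cultures, so each p-value measures the spread between these samples only, which may be technical. The mRNA of PRMT5 itself differed by 0.02 ± 0.03 on the log2 scale (SE, edgeR, adjusted p = 0.705), which is no check on inhibition of the enzyme. Of 8 epithelial and ovarian carcinoma markers, 7 were in the table, 3 were abundant enough to test and EPCAM and KRT8 rose. Their summed level was 5.79 to 8.48 CPM (a count divided by its library's total and scaled for composition) in SCR-6920 samples and 3.89 to 5.05 CPM in DMSO samples, and PAX8, a marker of the tissue of origin, had at most 2 counts in any sample. Markers of leukocytes, which make much of the interferon in tissue, summed to 6.64 to 7.63 CPM in SCR-6920 samples and 6.32 to 8.45 CPM in DMSO samples, nearly all of it CD68 and CD74, of which CD68 fell. The defining leukocyte marker PTPRC was at 0 counts in all 6 samples. So was IL3RA, the only 1 of 3 listed plasmacytoid dendritic cell markers that was in the table. Fibroblast markers summed to 62.6 to 64.9 CPM in SCR-6920 samples and 62.5 to 67.8 CPM in DMSO samples, with 1 of 4 tested higher and 1 lower. The sum hides opposite moves: COL1A1 rose, with means of 15.7 CPM in SCR-6920 samples and 8.18 CPM in DMSO samples (log2 0.94 ± 0.10 SE). THY1, most of the sum, fell, with means of 44.6 and 55.0 CPM. Endothelial markers summed to 0.390 to 0.472 CPM in SCR-6920 samples and 0.125 to 0.252 CPM in DMSO samples, with the 1 tested not passing and VWF and CDH5 at 0. The part of these markers in the results below was not tested.

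The comparison of SCR-6920 with DMSO asks which steps of the pathway differ in RNA level with the inhibitor. They differed in both directions. The RNA-binding effectors IFIT1 and IFIT3, the membrane proteins IFITM1 and IFITM3, and the kinases TBK1 and EIF2AK2 were higher in SCR-6920 samples. The transcription factors IRF3 and STAT2, the receptor kinase gene TYK2 and the effectors IFI35 and BST2 were lower. The effector OAS1 was also lower, but its call was lost without SCR-6920 replicate 1 or without DMSO replicate 3. Of 37 genes abundant enough to test, 8 rose and 9 fell, and 20 did not pass. A gene was called at an adjusted p below 0.05 in edgeR's quasi-likelihood test, with the p-values of all 14233 tested genes adjusted together (Benjamini-Hochberg). The calls are 45.9% of the 37, close to the 42.0% called among all tested genes, of which 20.6% were higher and 21.3% lower. The share of the group that changed therefore does not set it apart. Their median log2 change was -0.03, against -0.00 for all tested genes, with a range from -0.87 to 0.87. Only IFIT1, IFI35 and OAS1 passed the test with a change over 1.5-fold, 3 of 37, against 7.81% of all tested genes. OAS1 was under 1.5-fold by limma on log2(FPKM + 1). The 2 groups of samples did not overlap for 17 of the 37, 8 higher and 9 lower, where 50.6% of all tested genes had no overlap, 24.9% higher and 25.8% lower. Relative levels in bulk RNA do not tell fewer expressing cells from less RNA per cell.

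**Figure D1:**
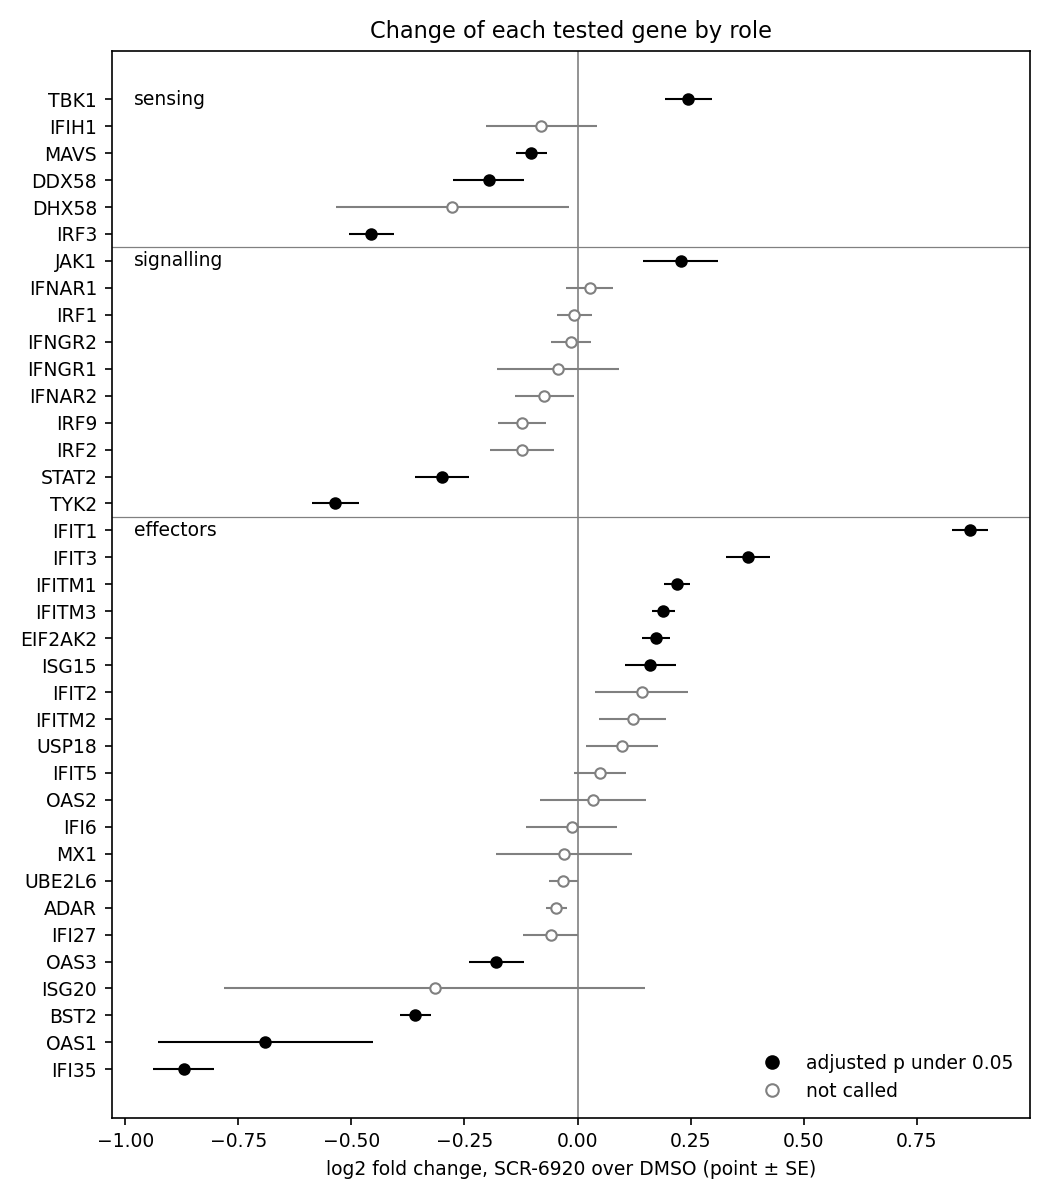
Log2 fold change of SCR-6920 over DMSO for the 37 tested genes, grouped by role (points with SE bars, 3 samples per group; filled points have an adjusted p under 0.05 by edgeR). Changes ran from -0.87 for IFI35 to 0.87 for IFIT1, with genes on both sides of 0 in every role.

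Levels between genes were compared on the deposited FPKM values, which divide counts by gene length and depth. IFITM3 was the highest of the 40, at 846 ± 10.7 FPKM in SCR-6920 samples and 748 ± 3.71 FPKM in DMSO samples (SD, n = 3 each). IFITM1 followed at 448 ± 9.30 FPKM in SCR-6920 samples and 388 ± 6.10 FPKM in DMSO samples, and BST2 at 189 ± 9.83 FPKM in SCR-6920 samples and 244 ± 4.30 FPKM in DMSO samples. With UBE2L6 and ADAR these were the 5 genes over 100 FPKM in DMSO samples, while 22 of the 40 were over 10 FPKM. All 5 are effectors, and effectors were also among the lowest of the 40. In all, 7 genes lay under 1 FPKM in DMSO samples: MX1, DHX58, OAS1, ISG20, IFI44, IFI44L and IRF7. MX1, an antiviral GTPase and a common marker of an interferon response, was at 0.920 ± 0.102 FPKM in SCR-6920 samples and 0.947 ± 0.102 FPKM in DMSO samples. IRF7, which amplifies interferon production, had 0 counts in all 6 samples and was not tested. IFI44 had 4, 5 and 2 counts in SCR-6920 samples and 6, 1 and 6 in DMSO samples, and IFI44L had 6, 2 and 1 counts in SCR-6920 samples and 0 in each DMSO sample, too few to test.

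**Figure D2:**
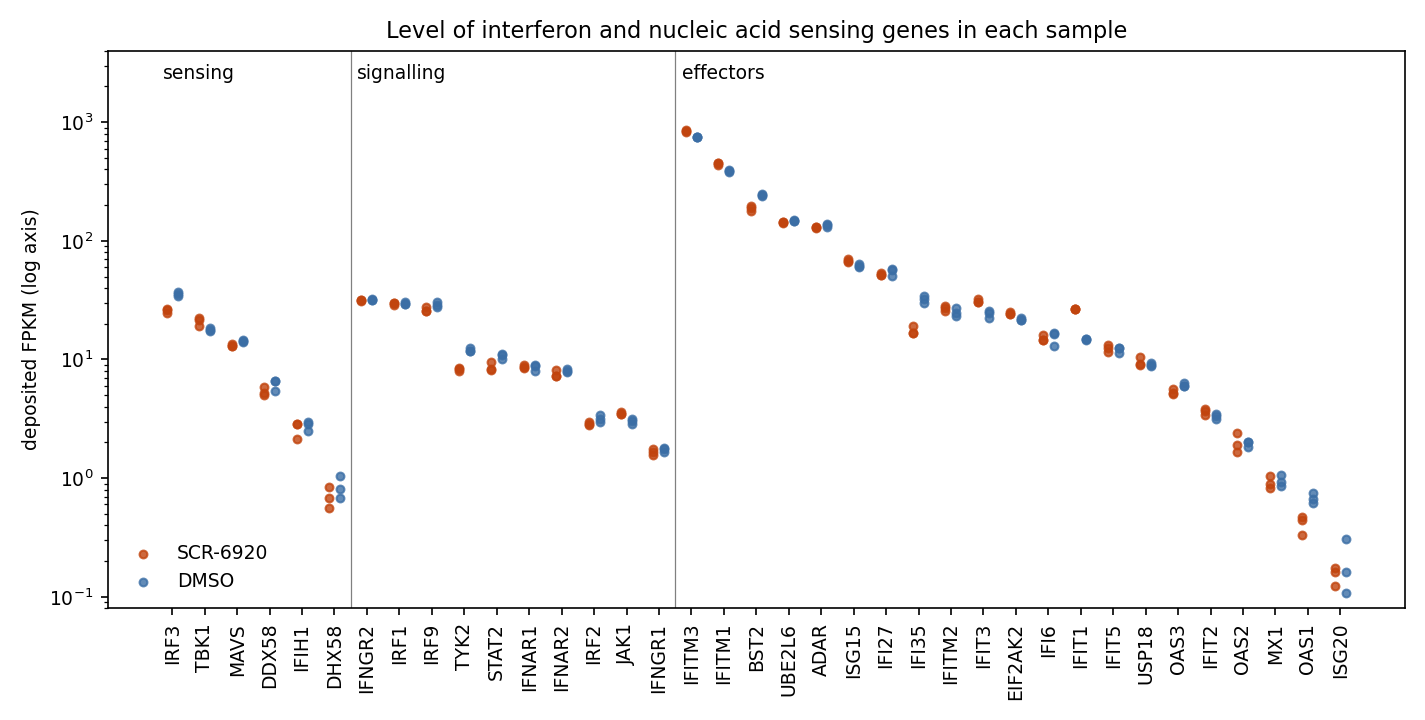
Deposited FPKM on a log axis for 37 genes in each of the 3 SCR-6920 and 3 DMSO samples, ordered within each role by the DMSO mean; IFI44, IFI44L and IRF7, under 0.1 FPKM, are not drawn. IFITM3 is the highest at 846 FPKM in SCR-6920 samples and 748 FPKM in DMSO samples, and the receptor and sensor genes lie below 40 FPKM.

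Of the 6 genes of RNA sensing, 1 rose, 3 fell and 2 did not pass, so that 66.7% were called, against 42.0% of all tested genes. IRF3, the transcription factor at the end of the sensing branch, had 50.6, 48.1 and 51.8 CPM in SCR-6920 replicates 1 to 3, against 71.1, 66.4 and 69.0 CPM in DMSO replicates 1 to 3. All 3 treated samples were below all 3 DMSO samples, and IRF3 fell to 0.729-fold (log2 -0.46 ± 0.05 SE, adjusted p = 4.46e-09, edgeR). TBK1, the kinase that phosphorylates IRF3, moved the other way, with 76.4, 74.4 and 65.7 CPM in SCR-6920 samples and 62.7, 60.9 and 59.2 CPM in DMSO samples. Treated replicate 3 was the lowest of its group and still above every DMSO sample, and TBK1 rose 1.19-fold (log2 0.24 ± 0.05 SE, adjusted p = 0.000245, edgeR).

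MAVS, which joins the RNA helicases to TBK1, had 155, 162 and 154 CPM in SCR-6920 samples and 166, 169 and 172 CPM in DMSO samples. The groups did not overlap, but the gap between the highest treated and the lowest DMSO sample was small, and MAVS fell (log2 -0.10 ± 0.03 SE, adjusted p = 0.0146, edgeR). DDX58, the sensor of RNA with a triphosphate end, had 24.4, 23.2 and 27.3 CPM in SCR-6920 samples and 30.2, 25.3 and 30.4 CPM in DMSO samples. DMSO replicate 2 lay within the treated range, and DDX58 fell (log2 -0.20 ± 0.08 SE, adjusted p = 0.0432, edgeR). The sensor of long double-stranded RNA, IFIH1, at -0.08 ± 0.12, and the regulatory helicase gene DHX58, at -0.28 ± 0.26 (log2, SE), did not pass. The DDX58 call was lost with DESeq2 (adjusted p = 0.0676), by limma on FPKM and when SCR-6920 replicate 1 or 2 or DMSO replicate 1 or 3 was left out (adjusted p from 0.130 to 0.204), and the MAVS call by leaving out SCR-6920 replicate 1, SCR-6920 replicate 3 or DMSO replicate 2 (0.0522, 0.0864 and 0.0502). Leaving out SCR-6920 replicate 1 left 2 of the 6 sensing genes called.

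Among 10 tested genes of receptor signalling 1 rose, 2 fell and 7 missed the threshold, and all 4 receptor chains were among the 7. The 30% called were fewer than the 42.0% of all tested genes. TYK2, the kinase that pairs with IFNAR1, had 40.5, 43.2 and 42.2 CPM in SCR-6920 samples and 59.9, 59.5 and 63.3 CPM in DMSO samples. All treated samples were at about the same level and below every DMSO sample, and TYK2 fell to 0.69-fold (log2 -0.54 ± 0.05 SE, adjusted p = 4.4e-10, edgeR). JAK1, the kinase that pairs with IFNAR2, had 20.05, 19.3 and 19.4 CPM in SCR-6920 samples and 15.9, 16.9 and 17.4 CPM in DMSO samples. The groups did not overlap and JAK1 rose 1.17-fold (log2 0.23 ± 0.08 SE, adjusted p = 0.0246, edgeR), the opposite direction from its partner kinase. The JAK1 call was lost without SCR-6920 replicate 1 or 3 or DMSO replicate 1 or 2 (adjusted p of 0.0878, 0.0513, 0.0865 and 0.0548) and by limma on log2(FPKM + 1) with no filter (0.069).

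STAT2, which gives the ISRE-binding complex its activation domain, had 42.0, 42.9 and 49.1 CPM in SCR-6920 samples and 51.7, 57.2 and 56.1 CPM in DMSO samples. Treated replicate 3 was the highest of its group and just below the lowest DMSO sample, and STAT2 fell to 0.812-fold (log2 -0.30 ± 0.06 SE, adjusted p = 0.000125, edgeR). IRF9, the DNA-binding part of the same complex, had 49.5, 46.2 and 45.8 CPM in SCR-6920 samples and 50.7, 49.6 and 53.7 CPM in DMSO samples. Its groups did not overlap either, but IRF9 did not pass (log2 -0.12 ± 0.05 SE, adjusted p = 0.0668, edgeR). It passed when only library size was scaled (0.0439), by limma on log2(FPKM + 1) and log2(FPKM + 0.1) (0.0323 and 0.0327) and without SCR-6920 replicate 1 (0.0356).

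The type I receptor chains IFNAR1 and IFNAR2 had log2 changes of 0.03 ± 0.05 and -0.07 ± 0.07, and the interferon gamma receptor chains IFNGR1 and IFNGR2 of -0.04 ± 0.14 and -0.01 ± 0.04 (SE). IRF1, a transcription factor that interferon gamma induces directly, had 103, 106 and 108 CPM in SCR-6920 samples and 105, 105 and 108 CPM in DMSO samples. The groups overlapped, with a log2 change of -0.01 ± 0.04, one of the more precise estimates of the group. IRF2, which competes with IRF1 for DNA, had a change of -0.12 ± 0.07.

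**Figure D3:**
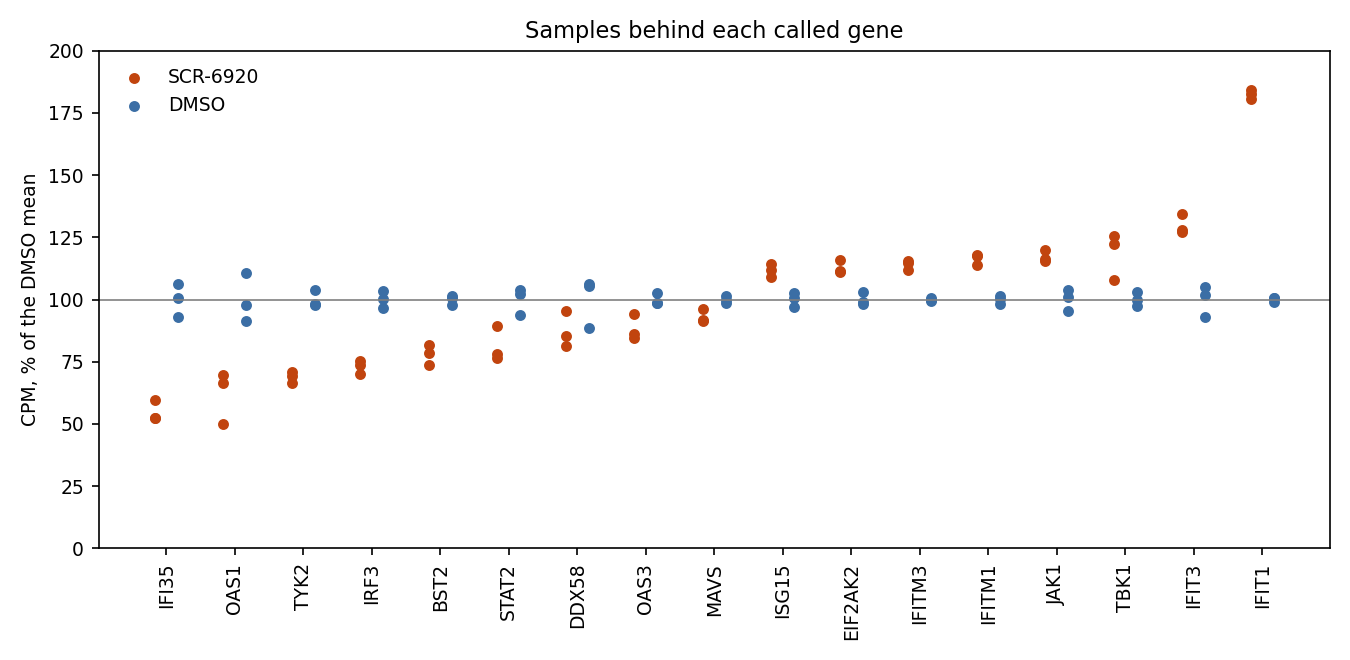
CPM of the 17 genes that passed the test in each sample, as a percent of the DMSO mean of that gene (3 SCR-6920 and 3 DMSO points per gene, ordered by fold change). IFIT1 stands furthest above the DMSO level and IFI35 furthest below it by fitted change, and DDX58 is the gene whose groups overlap.

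Of 21 tested effectors, 6 rose, 4 fell and 11 did not pass, with a median log2 change of 0.03. That is 47.6% called, against 42.0% of all tested genes. As the ISRE is the element these genes are known to share, it is shown for the 6 that rose. It is also shown for BST2 and OAS3, which fell and whose promoters hold it too. Each line gives 40 bases of the RefSeq promoter (build GRCh38.p14) in the gene's own direction around the ISRE match nearest the start of transcription, with matches to the ISRE letters (GAAA, 2 bases of any kind, GAAA) on either strand in capitals.
IFIT1 (chr10:89392505-89392544, plus strand): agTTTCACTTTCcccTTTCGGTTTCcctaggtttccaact
IFIT3 (chr10:89332463-89332502, plus strand): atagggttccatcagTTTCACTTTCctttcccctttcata
IFITM1 (chr11:314019-314058, plus strand): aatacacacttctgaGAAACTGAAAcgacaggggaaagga
IFITM3 (chr11:320871-320910, minus strand): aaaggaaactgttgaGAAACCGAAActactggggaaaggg
ISG15 (chr1:1013375-1013414, plus strand): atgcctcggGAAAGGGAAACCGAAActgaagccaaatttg
EIF2AK2 (chr2:37156962-37157001, minus strand): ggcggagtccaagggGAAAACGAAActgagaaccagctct
BST2 (chr19:17405730-17405769, minus strand): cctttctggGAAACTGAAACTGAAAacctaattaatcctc
OAS3 (chr12:112938447-112938486, plus strand): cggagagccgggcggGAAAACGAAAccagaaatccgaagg
The IFIT1 and IFIT3 elements read on the opposite strand to the others shown, and IFIT1, ISG15 and BST2 hold a pair of matches within these 40 bases.

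IFIT1, which binds RNA whose cap lacks the methyl group that marks host transcripts, rose most. It had 125, 124 and 123 CPM in SCR-6920 samples, against 68.5, 68.4 and 67.3 CPM in DMSO samples. Samples of each group lay within a few percent of each other and the groups were far apart, and IFIT1 rose 1.82-fold (log2 0.87 ± 0.04 SE, adjusted p = 8.66e-18, edgeR). IFIT3, its binding partner, had 80.1, 80.7 and 84.6 CPM in SCR-6920 samples and 58.7, 64.2 and 66.1 CPM in DMSO samples. It too had no overlap and rose 1.3-fold (log2 0.38 ± 0.05 SE, adjusted p = 9.94e-08, edgeR). The family did not move as one: IFIT2 had 13.1, 11.6 and 12.4 CPM in SCR-6920 samples and 10.6, 11.8 and 11.2 CPM in DMSO samples (log2 0.14 ± 0.10 SE), and IFIT5 a log2 change of 0.05 ± 0.06. Neither passed, and the groups overlapped for both. The 4 genes lie in a row on chromosome 10, and in the RefSeq order the only other protein-coding gene among them is IFIT1B.

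IFITM1, IFITM2 and IFITM3 encode small membrane proteins that hinder fusion of viruses with the cell and are neighbours on chromosome 11. IFITM3 had 525, 522 and 509.6 CPM in SCR-6920 samples and 453, 458 and 454 CPM in DMSO samples, a rise of 0.19 ± 0.03 (log2, SE, adjusted p = 2.37e-07, edgeR). IFITM1 had 304, 294 and 304 CPM in SCR-6920 samples and 253, 262 and 259 CPM in DMSO samples, a rise of 0.22 ± 0.03 (adjusted p = 2.1e-07, edgeR). Neither gene's groups overlapped, and both rises were small, 1.14-fold and 1.16-fold. IFITM2 did not pass at 0.12 ± 0.07. Of the distinct 50-base stretches in their coding transcripts (GENCODE 29), 32.9% of those of IFITM1, 35.3% of IFITM2 and 16.0% of IFITM3 also occur in transcripts of another gene, mostly of this family, so the counting could have split or dropped such reads and the single values are uncertain.

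EIF2AK2, or PKR, a kinase that halts translation when it binds double-stranded RNA, had 260.2, 249.8 and 250.4 CPM in SCR-6920 samples and 231, 223 and 220.5 CPM in DMSO samples. The groups did not overlap, and EIF2AK2 rose 1.13-fold (log2 0.17 ± 0.03 SE, adjusted p = 2.48e-05, edgeR). ISG15, a ubiquitin-like protein that is joined to other proteins, had 43.8, 42.7 and 44.7 CPM in SCR-6920 samples and 37.9, 40.2 and 39.3 CPM in DMSO samples. Its groups were close but apart, with a rise of 0.16 ± 0.06 (log2, SE, adjusted p = 0.0209, edgeR). The enzymes that attach and remove ISG15 did not pass, with log2 changes of -0.03 ± 0.03 for UBE2L6 and 0.10 ± 0.08 for USP18. The ISG15 call was lost without SCR-6920 replicate 1 or 3 or DMSO replicate 1 (adjusted p of 0.0603, 0.0851 and 0.0617).

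IFI35, a leucine zipper protein that pairs with NMI, fell most. It had 23.7, 23.8 and 27.1 CPM in SCR-6920 samples, against 48.2, 42.3 and 45.8 CPM in DMSO samples. Every treated sample was well below every DMSO sample, and IFI35 fell to 0.547-fold (log2 -0.87 ± 0.07 SE, adjusted p = 2.8e-12, edgeR), a change about as large as the IFIT1 rise in the other direction. BST2, or tetherin, which holds budding virus to the cell surface, had 199, 179 and 191 CPM in SCR-6920 samples and 238, 246 and 245 CPM in DMSO samples. There was no overlap, and BST2 fell to 0.78-fold (log2 -0.36 ± 0.03 SE, adjusted p = 3.75e-10, edgeR).

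OAS1, OAS2 and OAS3 encode enzymes that make oligoadenylates when they bind double-stranded RNA. OAS1 had 1.39, 1.85 and 1.94 CPM in SCR-6920 samples and 2.55, 2.73 and 3.08 CPM in DMSO samples, a fall to 0.62-fold with a wide error at this low level (log2 -0.69 ± 0.24 SE, adjusted p = 0.0187, edgeR). OAS3 had 34.1, 37.9 and 34.7 CPM in SCR-6920 samples and 39.7, 39.7 and 41.4 CPM in DMSO samples, a fall (log2 -0.18 ± 0.06 SE, adjusted p = 0.0161, edgeR). Neither had overlapping groups. OAS2, the next gene along chromosome 12, had 14.9, 10.2 and 11.6 CPM in SCR-6920 samples, both above and below the 12.3, 12.3 and 11.2 CPM of DMSO samples, and did not pass (0.03 ± 0.12). On log2(FPKM + 1), where the pseudocount exceeds its level, the limma change of OAS1 was -0.24 (adjusted p = 0.0331 with the filter on low values and 0.0247 without), under 1.5-fold, and over all 15 refits it ran from -0.78 to -0.24. The OAS1 call was lost without SCR-6920 replicate 1 or DMSO replicate 3 (adjusted p of 0.0863 and 0.0741), and the OAS3 call without SCR-6920 replicate 1 or 3 or DMSO replicate 3 (0.0778, 0.0684 and 0.0577) and by limma on log2(FPKM + 1) with no filter (0.0597).

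ADAR, which edits adenosine in double-stranded RNA and so keeps the cell's own RNA from its sensors, had 930.3, 942 and 926 CPM in SCR-6920 samples and 937, 977 and 977 CPM in DMSO samples. DMSO replicate 1 lay within the treated range and ADAR did not pass (log2 -0.05 ± 0.02 SE, adjusted p = 0.107, edgeR), though it passed without that sample at 0.00596 and with library size only at 0.0353, with a fall of at most 0.07 on the log2 scale. The other effectors that did not pass were MX1 at -0.03 ± 0.15, IFI6 at -0.01 ± 0.10, IFI27 at -0.06 ± 0.06 and ISG20 at -0.32 ± 0.46 (log2, SE). MX1, IFI6 and IFI27 are often used to mark an interferon response, as are IFIT1, IFIT3 and ISG15. The groups overlapped for MX1, IFI6 and IFI27, while IFIT1, IFIT3 and ISG15 rose with no overlap.

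The ISRE letters were sought on both strands of promoter windows, from 250 bases before to 50 after each annotated start, which RefSeq gave for 31 of the 40 genes (DDX58 by gene number, under its current symbol RIGI). They occurred in 16 of the 31, or 51.6%, and in 4.38% of the 27305 genes with a window. By role they occurred in 15 of 19 effectors, in 1 of 4 sensing genes, IFIH1, and in none of 8 signalling genes. All 6 effectors that rose hold the letters. Of 13 tested effectors with them, 6 rose, 2 fell and 5 did not pass, and of 4 without them none rose, IFI35 and OAS1 fell, and ADAR and UBE2L6 did not pass. Among all tested genes 20.6% were higher and 21.3% lower, and those calls were not split by the letters. IFI6, IFIT5 and IFIH1 had the most matches, 3 each, and did not pass. The GAS letters TTCNNNGAA, sought likewise, occurred in 8 of the 31 genes and in 9.38% of all genes with a window. They overlapped an ISRE match in 4 of the 31. IRF1, a gene known to be switched on through such an element, held this one, shown with the match in capitals because the change of IRF1 was near 0.
IRF1 (chr5:132490874-132490912, minus strand): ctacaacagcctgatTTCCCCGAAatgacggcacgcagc
These matches describe letters in the windows and not binding, and windows of genes with several starts were pooled.

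**Figure D4:**
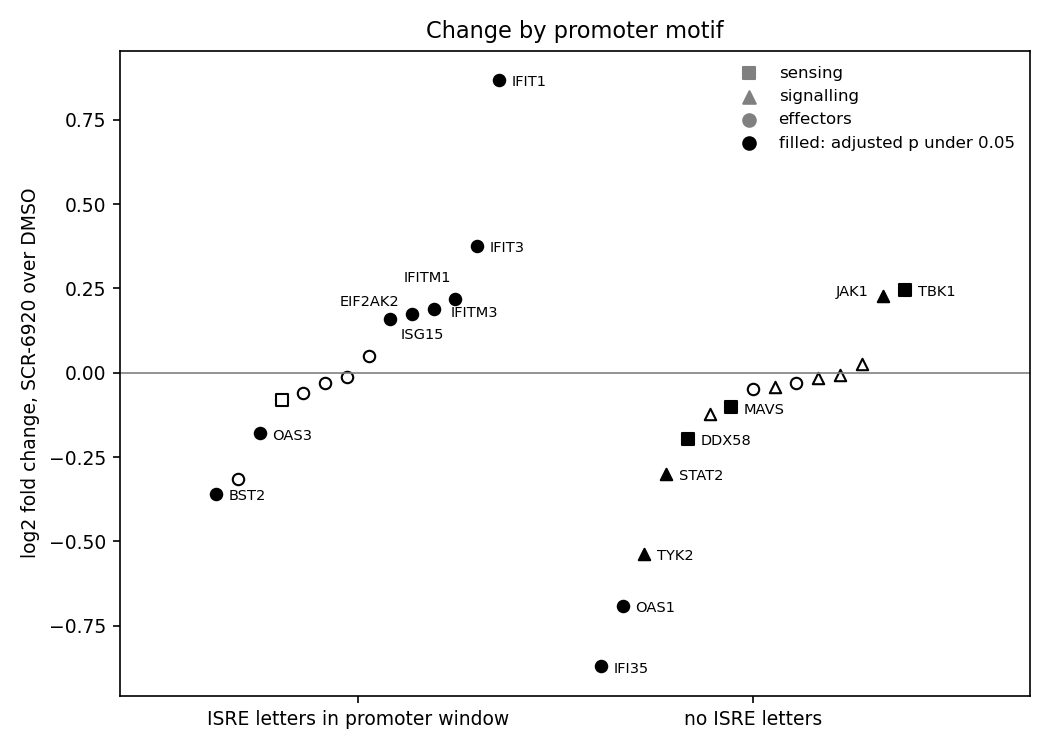
Log2 fold change of SCR-6920 over DMSO for the 29 tested genes with a promoter window, split by whether any window holds the ISRE letters (squares, sensing; triangles, signalling; circles, effectors; filled, adjusted p under 0.05 by edgeR). The 14 genes with the letters include 6 that rose and 2 that fell, and the 15 without them 2 that rose and 6 that fell. Among all tested genes 20.6% were higher and 21.3% lower. The sides also differ in role: 13 of the 14 are effectors, against 4 of the 15. A link of the letters to direction was not tested.

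Counts of the interferon genes IFNB1, IFNE and IFNL3 were at or near 0. IFNB1, the first interferon made after RNA sensing, had 0, 4 and 0 counts in SCR-6920 samples and 0, 0 and 1 in DMSO samples. IFNE had 0 counts in every sample and IFNL3 had 0, 0 and 5 counts in SCR-6920 samples and 0 in each DMSO sample. At this depth no difference in these ligands was detectable. IFNG, which encodes interferon gamma, had 14.8, 12.3 and 11.8 CPM in SCR-6920 samples and 9.04, 9.43 and 9.03 CPM in DMSO samples. The groups did not overlap and IFNG rose 1.41-fold (log2 0.50 ± 0.11 SE, adjusted p = 0.000387, edgeR). STING1, the adaptor of DNA sensing, had 3, 0 and 1 counts in SCR-6920 samples and 1, 5 and 0 in DMSO samples, and CGAS, the DNA sensor upstream of it, had 7, 19 and 13 counts in SCR-6920 samples and 16, 12 and 21 in DMSO samples. Both DNA-sensing genes were thus barely expressed.

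A further 140 genes of the pathway were listed by role, of which 129 were in the table and 109 were tested: 17 rose and 29 fell, 42.2% in all, against 42.0% of all tested genes (20.6% higher and 21.3% lower). Of 15 tested interferons and negative regulators, 5 rose and none fell, with a median log2 change of 0.12. The 33.3% called were below the share of all tested genes, and the share that rose was above the 20.6% of all tested genes. Those that rose included IFNG, PTPN2, a phosphatase that switches off JAK kinases (0.28 ± 0.05), and PIAS2, of a family that restrains STAT proteins (0.44 ± 0.05), while the feedback inhibitor SOCS1 had a change of 0.35 ± 0.36 and did not pass. Of 13 tested genes that remove nucleic acid or restrain its sensing and signalling, 5 fell and 2 rose, with a median of -0.11. That is 53.8% called, against 42.0% of all tested genes. RNASEH2C and RNASEH2A, subunits of the enzyme that takes RNA out of RNA-DNA hybrids, fell, with log2 changes of -0.74 ± 0.07 and -0.45 ± 0.05, as did the cytosolic RNA helicase gene SKIV2L at -0.66 ± 0.06 and the dNTP hydrolase gene SAMHD1 at -0.31 ± 0.05. RNASEH2C had 22.1, 23.3 and 23.9 CPM in SCR-6920 samples and 36.4, 41.8 and 37.9 CPM in DMSO samples, with no overlap. The 2 that rose were the deubiquitinase genes CYLD (0.41 ± 0.08, and 0.26 by limma on log2(FPKM + 1)) and OTUD5 (0.29 ± 0.05).

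Of 11 other tested signalling genes, 3 rose and 3 fell. That is 54.5% in all, against 42.0% of all tested genes (20.6% higher and 21.3% lower). STAT3 had 132, 130.3 and 131 CPM in SCR-6920 samples and 94.2, 98.2 and 92.4 CPM in DMSO samples, a rise of 0.46 ± 0.04 (log2, SE, adjusted p = 1.11e-11, edgeR). The groups did not overlap. JAK2, the kinase of the interferon gamma receptor, rose by 0.51 ± 0.10 (0.34 by limma on log2(FPKM + 1)). Of 18 other tested sensing and adaptor genes, 2 rose, 1 fell and 15 did not pass. The 16.7% called were below the 42.0% of all tested genes. TLR3, the endosomal sensor of double-stranded RNA, rose by 0.43 ± 0.07 and RNF135, a ubiquitin ligase of RIG-I, by 0.53 ± 0.09. TRIM25, another such ligase, fell (-0.18 ± 0.03).

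Of 52 other tested induced genes, 5 rose and 20 fell, with a median log2 change of -0.06. By direction, 9.62% rose, against 20.6% of all tested genes, and 38.5% fell, against 21.3% of all tested genes. TRIM22, an antiviral ubiquitin ligase gene, had 12.6, 14.9 and 13.6 CPM in SCR-6920 samples and 6.82, 6.60 and 6.37 CPM in DMSO samples. It had no overlap and rose 2.08-fold (log2 1.05 ± 0.11 SE, adjusted p = 3.48e-09, edgeR). TRIM5, PML and SP100 also rose, by 0.43 ± 0.08, 0.35 ± 0.06 and 0.38 ± 0.08. The 4 falls with the smallest p, which are not the 4 largest, were those of PLSCR1 (-0.89 ± 0.10), IFI30 (-0.52 ± 0.06), PARP9 (-0.39 ± 0.04) and RNF213 (-0.26 ± 0.03) (log2, SE).

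**Figure D5:**
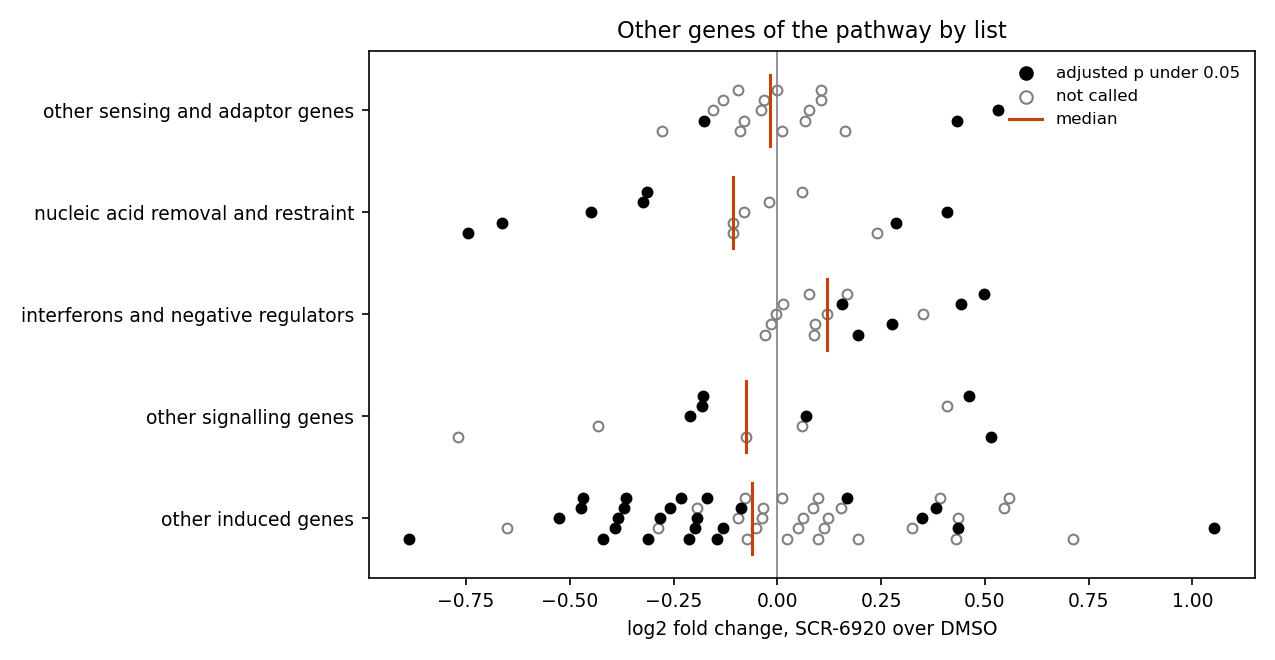
Log2 fold change of SCR-6920 over DMSO for 109 other tested genes of the pathway in 5 lists (filled, adjusted p under 0.05 by edgeR; vertical bars, list medians). The list of interferons and negative regulators holds 5 filled points, all above 0, and the list of other induced genes 5 above 0 and 20 below.

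The sources used here do not give the strand setting used for counting. In GENCODE 29, an exon of 12 of the 40 genes overlaps an exon of a gene on the opposite strand. Of the 17 that changed, IRF3 overlaps BCL2L12, which also fell (log2 -0.20 ± 0.05 SE, adjusted p = 0.00276, edgeR), JAK1 overlaps RAVER2 (-0.11 ± 0.05, not passing) and EIF2AK2 overlaps GPATCH11 (0.04 ± 0.09, not passing). IFIT2 overlaps LIPA, which rose by 0.43 ± 0.04. ISG15, OAS1, TBK1 and IFITM3 each overlap an opposite transcript that has only an identifier for a name. Without strand, reads of such pairs cannot be told apart, and these values are uncertain to that extent. Of the 50-base stretches of IRF9, 82.7% also occur in transcripts of AL136295.5, of IFNAR2 43.1%, nearly all in AP000295.1, and of USP18 23.4%, mainly in USP41, so these values are uncertain too.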

How the data were processed

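The authors deposited raw counts per gene and FPKM values for 6 samples; HISAT2 and HTSeq are named in the submitters' processing notes, with GRCm38, a mouse build, although the table's gene numbers are human, so no coordinates of the counted genes are given. The deposited FPKM equalled count over total and 1 gene length for all 21442 genes above 0 (relative tolerance 1e-06). The counts were fitted with edgeR 4.0.16 (R 4.3.3): filterByExpr, TMM scaling, a robust quasi-likelihood fit with group as its only term, and Benjamini-Hochberg adjustment over 14233 genes at 0.05. Each SE is the log2 change over the square root of its F. The script was tested on simulated counts. Chi-square per gene between replicates was 3.74 to 9.25, above sampling noise. Alternatives were other scalings and filters, DESeq2 1.42.0, limma 3.58.1 on log2 of the deposited FPKM plus a pseudocount, a replicate block, left-out samples, a stricter threshold and another role split. The genes and lists were chosen with earlier results of these data known. Genes named are all 40, PRMT5 and, for the other lists, up to 4 each way with the smallest p; those at or near 0 counts, SOCS1, CGAS, STING1, the overlapping neighbours and marker genes were named after their values were seen.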

Additional observations from a re-analysis of the deposited data

How the results depend on the processing

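Between 12 and 16 of the 40 genes were called when 1 sample was left out (17 with all samples), and the calls of sensing genes ranged from 2 to 3, of signalling genes from 2 to 3 and of effectors from 7 to 10. At an adjusted p under 0.01, 11 of the 37 tested genes were called, 2 of them sensing genes. The share of all tested genes under 0.01 was not counted, so this number has no background beside it. With OAS1, OAS2, OAS3, EIF2AK2 and ADAR counted as sensing, 7 of 11 sensing genes were called at 0.05, where 42.0% of all tested genes were called. The number of all genes called ran from 4635 (limma on log2(FPKM + 1) with no filter) to 6144 (replicate block) and, without 1 sample, from 5190 to 5936. Deviations of samples with the same number had correlations of 0.00663, 0.00497 and 0.0383. The best DMSO match of SCR-6920 replicates 1, 2 and 3 was DMSO replicate 1, 1 and 3. With 3 samples per group these values cannot settle whether the numbers pair samples. Under the replicate block 17 of the 40 were called, 8 higher and 9 lower. Of 17 called genes, 11 kept their call in all 15 refits at 0.05, and ISG15, OAS1, OAS3, JAK1, DDX58 and MAVS did not. No direction of the 40 reversed where either fit called it. Scalings moved the median of all genes by at most 0.01 on the log2 scale. Depth limited ISG20, DHX58 and OAS1, and IFI44, IFI44L and IRF7 could not be tested.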

Other observations

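The deposited table carries its own Reactome annotation, read here after the values above were seen. It places 29 of the 40 genes in interferon alpha/beta signaling, a term of 60 genes. Of the 22 tested genes of that term outside the 40, 3 rose and 9 fell by edgeR, or 54.5%, against 42.0% of all tested genes. By direction 13.6% rose and 40.9% fell, against 20.6% and 21.3% of all tested genes. The term for the antiviral mechanism of interferon-stimulated genes held 64 tested genes outside the 40, of which 10 rose and 28 fell. That is 59.4%, against 42.0% of all tested genes, with 15.6% higher, 43.8% lower and a median log2 change of -0.09. Interferon gamma signaling had 16 higher and 11 lower genes of 58 tested outside the 40 and a median log2 change of 0.10. The called share was 46.55%, against 42.0% of all tested genes. Higher genes made up 27.59% and lower genes 18.97%, against 20.6% and 21.3% of all tested genes. The term for interferon induction through DDX58 and IFIH1 had 12 higher and 13 lower of 56 tested outside the 40, or 44.6%, with 21.4% higher and 23.2% lower. These counts are descriptions with no test of the list.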
